A study of Bos taurus with 6 samples.

Results

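The genes described here code for proteins that join neighbouring cells: the connexins GJA1 and GJA4, the cadherins CDH1 and CDH2, the plaque proteins TJP1 and JUP, and the tight junction membrane proteins OCLN and CLDN11. They were taken as every array probe whose gene symbol in the platform annotation is 1 of these 8. All 8 genes were on the array, of 15229 genes with a symbol, and they were read by 11 of 43794 probes. A gene's value is that of its brightest probe, the one with the highest mean intensity over all arrays, and other probes are given beside it.

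Treated bovine granulosa cells had received 10 ng/ml of fibroblast growth factor 18 (FGF18) for 2 h, and control cells were left untreated. Both came from follicles 2 to 6 mm wide of Holstein crossbred cattle from an abattoir. Both had spent 5 days in serum-free culture, where the hormones FSH and insulin were present at 10 ng/ml each. Each of 6 two-colour arrays held RNA of both conditions. They form 3 biological replicates of 2 arrays each, a forward array, where Cy5 marked the FGF18 RNA, and a swapped array, where it marked the control RNA. The labels name the control time point T0 and do not say whether untreated cells were taken before or after the 2 h, nor how many animals made up a replicate.

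Granulosa cells line the ovarian follicle and surround the oocyte, and they work as a coupled sheet. Gap junctions, channels built of connexins, pass ions and small metabolites from cell to cell and, in the mouse, from granulosa cells to the oocyte. Adherens junctions hold cells together through cadherins, whose tails bind catenins and, through these, actin. Tight junctions seal the space between cells with claudins and occludin, which are anchored to a cytoplasmic plaque.

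A probe counted as above background on an array where its spot was brighter than 153 negative control spots, taken as their mean plus 2 SD. Between 45.7% and 73.5% of all probes did so per array and condition. Across 30837 probes above background, forward and swapped arrays correlated at 0.67 (replicate 1), 0.77 (replicate 2) and 0.27 (replicate 3), and the ratios of replicate 1 correlated at -0.24 with those of replicate 2. On 1 array, the swapped array of replicate 2, spots for spike-in RNA were dim, with a median intensity of 1100 in Cy5 and 483 in Cy3. Of 12 granulosa markers, 7 were above background on all 6 arrays in both conditions, among them INHA, INHBA and AMH, while FOXL2 and HSD17B1 were on none. All 7 stromal markers, collagens, DCN and LUM among them, were also above background on all arrays. The log2 of their summed intensities ran from 16.2 to 16.6 in both FGF18-treated and control cells. Other cell types also had markers above background on all 6 arrays in both conditions. They were 3 of 7 for leukocytes and blood, 2 of 4 for theca and 2 of 7 for endothelium. For surface epithelium it was 1 of 5 and for oocytes 0 of 7. The part of stromal or other cells in the results below was not tested.

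The comparison asks whether junction transcripts differ after 2 h of FGF18. Values are log2 of normalized intensity, or log2 ratios of FGF18 over control, given as a mean with its SD over 3 replicates. Of the 8 genes, 0 passed limma's test at an adjusted p under 0.05, where 0% of all genes did, and each had an adjusted p of 0.986. At an unadjusted p under 0.05 it was 1 of 8, GJA1, where 3.49% of all genes met this. Among the 8, 1 was higher and 0 were lower in all 3 replicates, where 12.0% of all genes were higher and 12.0% lower. The median ratio of the 8 was 0.02, against -0.01 for all genes.

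GJA1, the connexin that makes most gap junctions between granulosa cells, was read by probe EMBV3_34634 and lay above background on all 6 arrays in both conditions. Its log2 level was 13.59, 13.16 and 13.06 in FGF18-treated cells of replicates 1, 2 and 3, against 12.68, 12.44 and 12.95 in control cells. The groups did not overlap, as was so for 2.76% of all genes with FGF18 on top and for 3.06% with the control on top. In replicate 3, however, both conditions lay close together. The ratio was 0.58 ± 0.42 (1.49-fold, n = 3), with a 95% interval from 0.03 to 1.13 and a limma unadjusted p of 0.044, adjusted 0.986. That unadjusted p was 0.051 with median centring, 0.076 on swapped arrays alone, 0.133 without replicate 1 and 0.153 without replicate 2, and it was 0.020 on forward arrays alone and 0.011 without replicate 3. The ratio exceeded the ratio of 99.7% of all genes. Such a ratio in whole cultures cannot tell a different share of GJA1-rich cells from a different amount of RNA per cell.

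Single arrays gave GJA1 ratios of 1.01, 0.74 and 0.26 on the forward arrays and of 0.80, 0.70 and -0.03 on the swapped arrays of replicates 1, 2 and 3. Thus 5 of 6 arrays were higher with FGF18, and the exception was the swapped array of replicate 3. On that array 45.7% of all probes were above background for FGF18, the lowest share of any array and condition. The forward and swapped arrays of replicate 3 also correlated least, at 0.27. Whether this bears on the exception was not tested. No member was higher on all 6 arrays (0 of 8), as 4.47% of all genes were, and 0 of 8 were lower on all 6, as 2.73% of all genes were. The dimmer probe of the gene, EMBV3_43670, showed less. Its log2 levels were 8.70, 8.35 and 8.23 in FGF18-treated cells and 8.25, 8.41 and 8.06 in control cells, and these groups overlapped. Its ratio was 0.19 ± 0.25, with 0.45, -0.06 and 0.18 by replicate, so the 2 probes differed most in replicate 2. The mean over both probes gave the gene 0.38 in place of 0.58.

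GJA4, the connexin through which the mouse oocyte couples to its granulosa cells, was near background. Its spots passed background for FGF18 on 4 arrays and for the control on 6. Its log2 level was 6.95, 6.74 and 6.74 in FGF18-treated cells and 6.84, 6.88 and 6.80 in control cells, which overlapped. The ratio was -0.03 ± 0.13, with an interval from -0.26 to 0.20. Without replicate 2 it was 0.02, and the dye orientations gave opposite signs, 0.12 on forward arrays and -0.18 on swapped arrays.

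**Figure D1:**
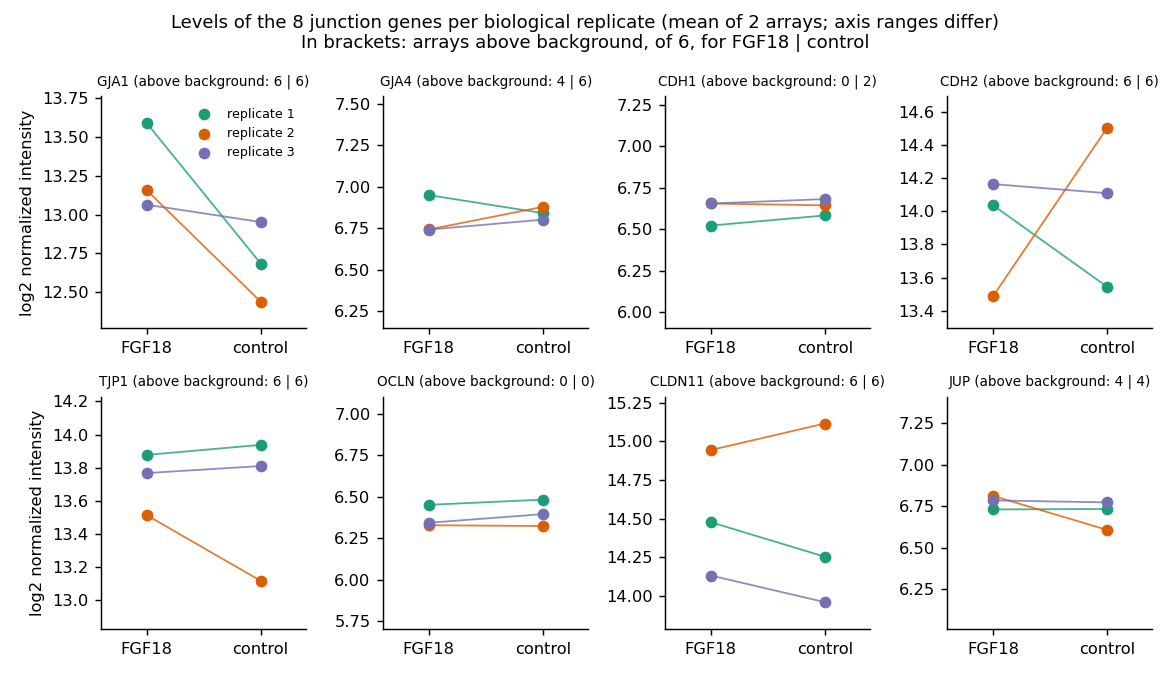
Log2 normalized intensity of each gene's brightest probe in FGF18-treated cells (left of each panel) and control cells (right), for 3 biological replicates, each the mean of 2 arrays, with a line joining the conditions of a replicate. GJA1 levels with FGF18 (13.06 to 13.59) lie above all control levels (12.44 to 12.95), and the lines of CDH2 cross.

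Neither cadherin had the same sign in all 3 replicates. CDH2, neural cadherin, which granulosa cells carry at their contacts, was above background on all 6 arrays in both conditions. Its log2 level was 14.04, 13.49 and 14.16 in FGF18-treated cells, against 13.55, 14.50 and 14.11 in control cells. Levels with FGF18 were thus higher in replicate 1, lower in replicate 2 and close to the control in replicate 3. The ratios were 0.49, -1.01 and 0.05, which averaged -0.16 ± 0.77, with an interval from -1.16 to 0.84. This spread between replicates exceeded that of 96.0% of all genes. Both arrays of replicate 2 were lower with FGF18, at -0.78 and -1.25, and without that replicate the mean was 0.27. The array with dim spike-in spots was 1 of these, and without it the mean was -0.08.

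The other probes of CDH2 were nearer 0 in replicate 2. EMBV3_07839 gave 0.05, -0.23 and 0.03 in replicates 1, 2 and 3, and the dimmest, EMBV3_14850, gave 0.16, 0.27 and 0.04. The ratio of EMBV3_07839 averaged -0.05 ± 0.16 and that of the dimmest 0.16 ± 0.11. CDH1, epithelial cadherin, passed background on 0 arrays with FGF18 RNA and on 2 with control RNA, so no fold is given. Its log2 levels of 6.52, 6.66 and 6.66 in FGF18-treated cells and 6.58, 6.64 and 6.68 in control cells overlapped, and differences among such dim values carry little information.

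**Figure D2:**
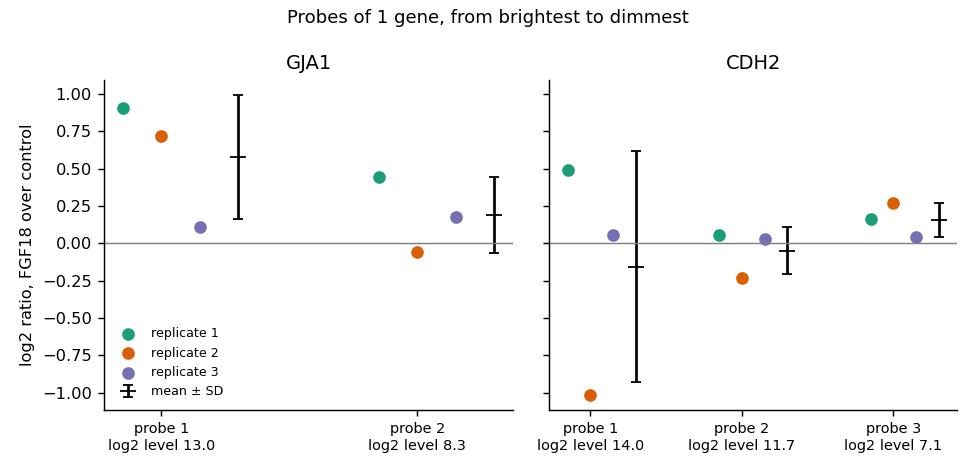
Log2 ratio of FGF18 over control for the 2 probes of GJA1 and the 3 probes of CDH2, from brightest to dimmest, with each replicate as a point and the mean ± SD as a bar. The brightest CDH2 probe spans 0.49 to -1.01 between replicates, and its other probes stay between -0.23 and 0.27.

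TJP1, which anchors tight junction proteins to actin and also binds connexins, was above background on all 6 arrays in both conditions. Its log2 level was 13.88, 13.51 and 13.77 in FGF18-treated cells and 13.94, 13.12 and 13.81 in control cells, which overlapped. Replicate 2 was the lowest in both conditions and the only 1 of 3 with a ratio above 0, at 0.40, against -0.06 and -0.04 in replicates 1 and 3. The mean was 0.10 ± 0.26 with an interval from -0.27 to 0.46, and it was -0.05 without replicate 2. Within replicate 2 the ratio was 0.20 on the forward array and 0.59 on the swapped array with dim spike-in spots. Without that swapped array the mean was 0.03.

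JUP, plakoglobin, is a catenin of both adherens junctions and desmosomes. It was above background on 4 arrays in each condition, but in both conditions at once on only 2. Its log2 levels were 6.73, 6.81 and 6.79 in FGF18-treated cells and 6.73, 6.61 and 6.77 in control cells. The groups overlapped, and the ratio was 0.07 ± 0.12, with an interval from -0.15 to 0.29, and was 0.0046 without replicate 2. As for TJP1, the ratio furthest from 0 was that of replicate 2, at 0.20, against -0.00281 and 0.01 in replicates 1 and 3. It was 0.07 on the forward array of replicate 2 and 0.34 on the swapped array with dim spike-in spots. Without that swapped array the mean was 0.03.

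CLDN11, a claudin also known from Sertoli cells of the testis, was above background on all arrays. Its log2 level was 14.48, 14.94 and 14.13 in FGF18-treated cells and 14.25, 15.11 and 13.96 in control cells. Here the replicates differed more than the conditions did. Averaged over both conditions, levels ran over a range of 0.98 between replicates, with replicate 2 highest. The FGF18 ratio was at most 0.22 in size. TJP1 showed the same, with 0.59 against 0.40, while GJA1 and CDH2 did not. Each replicate was on 2 arrays of its own, and how far differences between arrays add to these ranges was not tested. CLDN11 ratios of 0.22, -0.17 and 0.17 averaged 0.07 ± 0.21, with an interval from -0.24 to 0.39, and 0.00033 without replicate 1. OCLN, occludin, was above background on 0 arrays in either condition, so no fold is given. Its log2 levels of 6.45, 6.33 and 6.34 in FGF18-treated cells and 6.48, 6.32 and 6.39 in control cells are those of a probe without a measured signal.

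**Figure D3:**
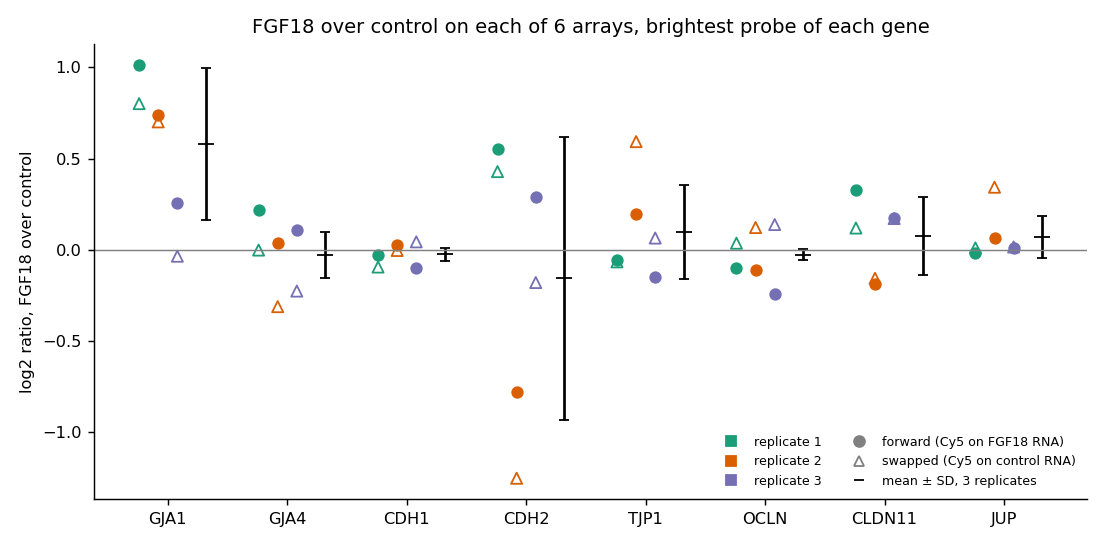
Log2 ratio of FGF18 over control on each of 6 arrays for the brightest probe of the 8 genes, coloured by replicate, filled for forward arrays (Cy5 on FGF18 RNA) and open for swapped ones, with the mean ± SD of 3 replicates in black. GJA1 is above 0 on 5 of 6 arrays, and CDH2 is at -0.78 and -1.25 on the arrays of replicate 2.

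A dye term in limma, which asks whether ratios differ between forward and swapped arrays, passed an adjusted p of 0.05 for 0 of 8 members and for 0.433% of all genes. Forward and swapped arrays were on different slides, so slide and dye cannot be told apart. With the replicate as a block, which takes the spread between replicates out of the error, the same term passed for 2 of 8, GJA4 (0.15, limma adjusted p = 0.010) and OCLN (-0.13, adjusted p = 0.023), where 29.9% of all genes passed.

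By a fixed rule, genes with a pattern most like that of GJA1 were looked for among 8504 others above background on all arrays. The 3 most alike were RMI2, part of a complex that resolves DNA crossovers, RANGRF, a factor that binds the GTPase Ran, and TRIM63, a ubiquitin ligase of muscle. Over the 6 arrays, taken as 3 pairs sharing RNA, their ratios correlated with those of GJA1 at 0.992, 0.987 and 0.986. With so few arrays and so many genes, correlations of this size are a description only. The mean ratios of these genes were smaller, 0.09 ± 0.18, -0.07 ± 0.22 and 0.07 ± 0.37.

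Of 88 further junction genes, 76 were on the array and 55 of these passed background in either condition on 3 arrays or more. None passed, 0 of 76 at an adjusted p under 0.05 in limma, where 0% of all genes did. At an unadjusted p under 0.05 it was 1 of 76, beside 3.49% of all genes. Higher in all 3 replicates were 7 of 76 (9.21%) and lower in all 3 were 13 of 76 (17.1%), where 12.0% of all genes were higher and 12.0% lower. Their median ratio was -0.0121, beside -0.00822 for all genes. By class, medians were -0.02 for 14 connexins and pannexins, 0.000357 for 7 cadherins, -0.02 for 11 catenins and adherens partners, -0.00133 for 23 claudins and tight junction membrane proteins, -0.01 for 10 plaque and polarity proteins and 0.01 for 11 desmosomal genes.

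CLDN1, a barrier-forming claudin of epithelia, was the 1 gene of 76 with an unadjusted p under 0.05, a threshold that 3.49% of all genes met. Its log2 level was 7.91, 8.39 and 8.40 in FGF18-treated cells and 8.24, 8.79 and 8.71 in control cells. Replicates differed in level, so the groups overlapped, but within each replicate the value with FGF18 was lower, at -0.33, -0.40 and -0.31. The ratio of -0.35 ± 0.04 (1.27-fold lower, n = 3) had an interval from -0.52 to -0.18, a limma unadjusted p of 0.00596 and an adjusted p of 0.986. All 6 arrays were lower with FGF18, which held for 2.73% of all genes. CLDN1 was named because it was lower in each replicate with a small p, so its array signs are no separate support. Its unadjusted p in limma was 0.088 with median centring and 0.065 where the variance prior was robust and followed intensity. It was 0.051 without replicate 3, 0.041 without replicate 1 and 0.018 without replicate 2.

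Of other genes lower in all 3 replicates, GJB2, a connexin of epithelia, had -0.22 ± 0.14 and was lower on all 6 arrays, and its other probe, at 0.07, was above background on 0 arrays. PKP4, a catenin relative found at adherens junctions, had -0.23 ± 0.20, which was -0.12 without replicate 2. MARVELD3, a relative of occludin, had -0.32 ± 0.53, which came from replicate 2 at -0.93, against -0.02 in each of the others, and was -0.02 without it.

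Of genes higher in all 3 replicates, 4 are named. JAM2, a junctional adhesion molecule, had 0.18 ± 0.21, which was 0.06 without replicate 1. PANX1, a channel protein related to connexins in form, had 0.12 ± 0.12, which was 0.05 without replicate 2. GJA5, a connexin of endothelium, was near background, above it on 4 arrays with FGF18 RNA and 2 with control RNA. Its 0.11 ± 0.11 was 0.04 without replicate 3. CTNNA2, the alpha-catenin of neurons, had 0.11 ± 0.16 by its brightest probe, which was 0.02 without replicate 1, and its others gave 0.01 and -0.00413.

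The partners of cadherins fixed for description followed the pattern of CDH2 in part. CTNNB1, beta-catenin, had 0.77, -0.38 and 0.02 in replicates 1, 2 and 3, a mean of 0.13 ± 0.58 that was -0.18 without replicate 1. CTNND1, a catenin that binds the cadherin tail near the membrane, had 0.28, -0.99 and 0.07, a mean of -0.21 ± 0.68 that was 0.17 without replicate 2, and its other probes gave 0.20, -0.18, 0.05 and 0.03. CTNNA1, the alpha-catenin that reaches actin, went the other way in replicate 2, with -0.14, 0.57 and -0.00189, a mean of 0.14 ± 0.37. So, by brightest probe, CDH2, CTNNB1 and CTNND1 were above 0 in replicate 1 and below 0 in replicate 2. TJP1 and CTNNA1 were below 0 in replicate 1 and above 0 in replicate 2. Of the other members, GJA4 (0.11 and -0.14) and CLDN11 (0.22 and -0.17) had the signs of CDH2. JUP, itself a catenin (-0.00281 and 0.20), had those of TJP1, as did CDH1 and OCLN near the background, and GJA1 was above 0 in both. These signs were thus not particular to cadherins and their partners. The share of all genes with either pattern was not counted. Over all 30837 probes above background the ratios of replicates 1 and 2 correlated at -0.24, those of 1 and 3 at -0.04 and those of 2 and 3 at 0.38.

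GJC1, a connexin of heart and vessel walls, had 0.0025 ± 0.013, with -0.20 on forward arrays and 0.21 on swapped arrays. F11R, a junctional adhesion molecule, had -0.04 ± 0.15, which was 0.07 with median centring. PERP, a desmosomal membrane protein, is named after its values were seen because it stood furthest from 0 in the list. Its brightest probe had 0.37, -2.74 and -1.21 in replicates 1, 2 and 3, a mean of -1.19 ± 1.55, but its other probe, also above background on all arrays, gave -0.05, 0.20 and -0.09.

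**Figure D4:**
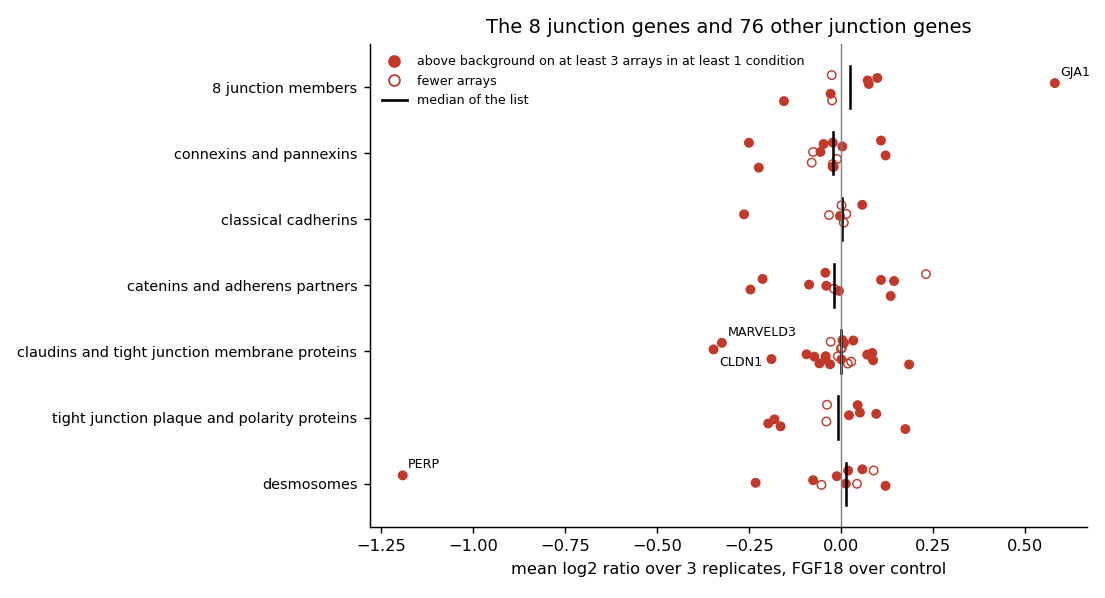
Mean log2 ratio of FGF18 over control for the 8 genes and for 76 other junction genes by class, filled where a gene passed background in either condition on 3 arrays or more, with the median of each class as a black line. GJA1 (0.58) and PERP (-1.19) stand furthest from 0 on either side, and class medians lie between -0.02 and 0.02.

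**Figure D5:**
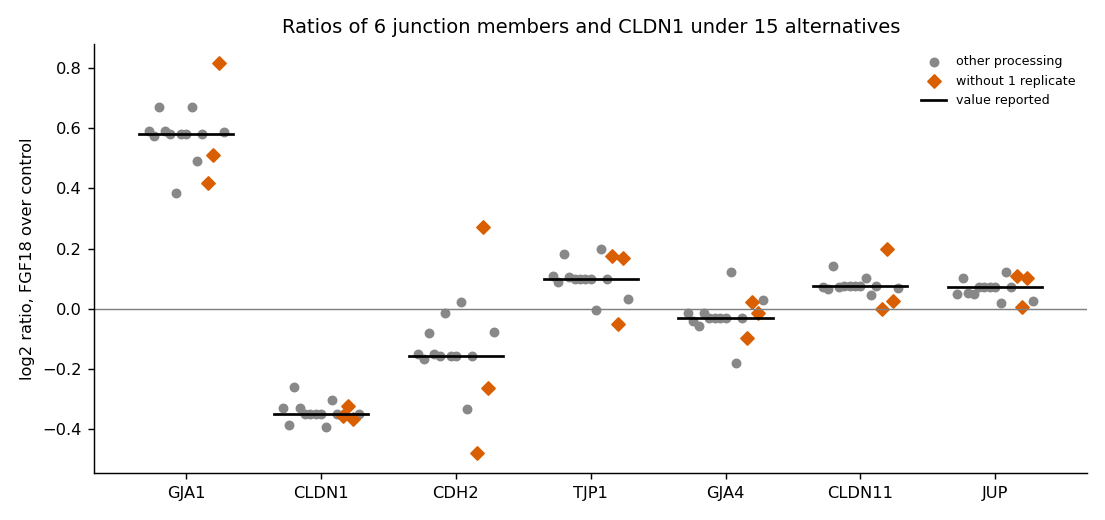
Log2 ratio of FGF18 over control for 6 of the 8 genes and for CLDN1 as reported (black line) and under 15 alternatives, with those that leave out 1 replicate as diamonds. GJA1 stays between 0.38 and 0.81 and CLDN1 between -0.39 and -0.26, while CDH2 runs from -0.48 to 0.27.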

How the data were processed

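Spot intensity at both dye wavelengths and the local background were deposited by the authors without normalization, per the file headers. A table of log2 ratios, also deposited by the authors, was used as an alternative. Its making and the scanner software are not given in the sources used here. Per array, its values correlated at 0.999995 to 0.999999 with ratios made here by plain background subtraction and loess. As alternatives, these 2 are thus near duplicates. Per the labels' protocols, RNA was amplified in 2 rounds by T7 polymerase and labelled chemically.

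Analysis used limma 3.58.1 in R 4.3.3. Normexp (offset 50) corrected the background, which makes ratios of dim probes smaller, and each array was normalized by loess (span 0.3), to which 1418 control spots had weight 0. The labels' dyes gave the direction, FGF18 over control, and the 2 arrays of a replicate were averaged. The 3 replicates entered lmFit and eBayes over 15229 genes, with Benjamini-Hochberg adjustment and a threshold of 0.05. Levels were made comparable between arrays by Aquantile. The fit was also run on simulated arrays with independent errors. Real arrays of a replicate correlated at 0.82 in the fit with the replicate as a block, so no result rests on that run.

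Arrays with the same number in their titles were taken as 1 replicate. In separate channels, FGF18 and control of a number correlated in their deviations at 0.49, 0.47 and 0.50. They share arrays, and the ratio within arrays already pairs them.

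One symbol each was given for 21790 of the 43794 gene probes, several for 0, and no symbol for 22004. Of the 15229 symbols, 14114 are current in RefSeq (ARS-UCD2.0), 1019 are older and 96 did not match. No genome build is named in the files, so no coordinates are given.

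Members and lists were chosen with earlier results of these data known. Named besides the 8 genes were, of the wider list, up to 4 genes higher and 4 lower in all 3 replicates by unadjusted p among those above background, a few fixed partners and the 3 genes most like GJA1. Alternatives changed the background correction, the normalization, the filter on dim probes, the fitted unit, dyes, prior, probe rule and replicates.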

Additional observations from a re-analysis of the deposited data

Results flagged for a closer look

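In 3 of the named genes the ratio of FGF18 over control had one sign on all 3 forward arrays (Cy5 on FGF18 RNA) and the opposite sign on all 3 swapped arrays, as it did for 15.2% of all genes. GJA4 had a dye term of 0.15, with a mean of 0.12 on forward and -0.18 on swapped arrays. OCLN, at background on every array, had a dye term of -0.126, with -0.15 on forward and 0.10 on swapped arrays. GJC1 had a dye term of -0.207, with -0.20 on forward and 0.21 on swapped arrays. None of the 3 dye terms passed in limma over all genes, with 6 arrays as independent and adjusted p-values of 0.254, 0.212 and 0.094. With the replicate as a block, GJA4 and OCLN passed at 0.010 and 0.023, as 29.9% of all genes did.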

How the results depend on the processing

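Under all 15 alternatives, of which 1 (without the swapped array of replicate 2) was chosen after seeing the data, 0 of all genes, 0 of the 8 members and 0 of the 76 wider genes passed, and the replicate block likewise gave 0. The lowest adjusted p was 0.267 for a member and 0.171 for a wider gene, both with 6 arrays taken as independent. GJA1 and CLDN1 kept their direction throughout, but many of the alternatives could not have turned it. The dye term, the replicate block, the other prior and the filter on dim probes left both mean ratios as they were. Both genes had the same sign in every replicate, so leaving out 1 replicate could not turn them either. CLDN11 and JUP did not turn sign, but leaving out 1 replicate took them as low as 0.00033 and 0.0046. CDH1, a probe at background, had no value with the filter on dim probes, which 6 of 8 members passed. The median of the members, 0.02, was 0.0729 with that filter, which leaves out CDH1 and OCLN, and 0.0722 with swapped arrays alone, and from -0.00359 to 0.0145 without 1 replicate. With the replicate block the dye term passed for 2 members in place of 0, a change set by taking the spread between replicates out of the error.

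The cause of the following reversals was not tested. With forward arrays alone, the ratio was 0.12 for GJA4, 0.0217 for CDH2, -0.0023 for TJP1 and -0.20 for GJC1. With swapped arrays alone, it was 0.10 for OCLN and -0.16 for CTNNB1. GJC1 was -0.0032 with plain subtraction, -0.0051 with an offset of 16, -0.0272 with median centring, -0.0035 by the authors' values and -0.0909 without the swapped array of replicate 2, where GJA4 was 0.0291. F11R was 0.0657 with median centring and 0.0191 as the mean over its probes. Leaving out 1 replicate gave -0.0979 to 0.0244 for GJA4, -0.48 to 0.27 for CDH2, -0.0514 to 0.177 for TJP1, -0.0045 to 0.0090 for GJC1 and -0.069 to 0.283 for CTNNA1. It gave -0.18 to 0.39 for CTNNB1, -0.46 to 0.17 for CTNND1, -0.131 to 0.0135 for F11R, -0.157 to 0.0514 for RANGRF and -0.0874 to 0.268 for TRIM63. Signal over background limits CDH1 and OCLN, and also GJA4 and JUP, which were above it on 4 to 6 arrays per condition. Both conditions were above it at once on 4 arrays for GJA4 and on only 2 for JUP.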
